A study of Mus musculus with 8 samples.

Results

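Btg1, Btg2, Tob1, Tob2, Slfn2, Pik3ip1, Txnip and Tsc22d3 are 8 genes known for restraining proliferation or keeping lymphocytes at rest. They were chosen by name from the 25124 genes of a mouse RNA sequencing table, and each had 1 entry there. Earlier results of these data were known when they and the gene lists below were chosen. Counts of these genes called, set beside the share of all genes, are therefore not independent of these data. RNA was read in 8 libraries of spleen CD4 T cells of mice that carry a KLF2(GFP) and a FOXP3(RFP) reporter, fluorescent proteins for the transcription factors KLF2 and FOXP3. All cells were sorted as FOXP3-negative and CD44hi, a surface phenotype of antigen-experienced T cells, and then as KLF2+ or KLF2-. The 4 groups of 2 libraries were stimulated KLF2+ cells, unstimulated KLF2+ cells, stimulated KLF2- cells and unstimulated KLF2- cells. Stimulation was with 2.5 micrograms/mL of anti-CD3 together with 1.25 micrograms/mL of anti-CD28, which engage the T cell receptor complex and a costimulatory receptor, and every culture was harvested at 48 h. Replicate numbers in the labels are 1 and 2 for KLF2+ cells, and 3 and 4 for KLF2- cells. They do not state that libraries of a group came from separate mice, nor the age or number of mice, so p-values measure only the spread between these libraries.

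The BTG and TOB proteins are small antiproliferative proteins that share an amino-terminal domain through which they bind the CCR4-NOT deadenylase, the complex that shortens the poly(A) tails of mRNA. BTG1 and BTG2 are needed to keep mouse T cells quiescent, and TOB1 was described as a brake on T cell activation. The other 4 genes act elsewhere. SLFN2 is a Schlafen protein whose loss in mice brings T cells out of quiescence, and PIK3IP1 is a transmembrane inhibitor of the catalytic subunit of phosphoinositide 3-kinase (PI3K). TXNIP is an arrestin-like protein that binds thioredoxin and limits glucose uptake. TSC22D3, also called GILZ, is a leucine zipper protein induced by glucocorticoids and by FOXO factors.

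Promoter windows of 6 of the genes are shown because they hold letters associated with factors of T cell quiescence. Each window runs from 250 bases before to 50 bases after the gene start in RefSeq (build GRCm38.p6). Windows that start where the deposited table places the gene were found for all 8 genes. Capitals mark CCACCC, a box bound by KLF factors, in Tob1, Tob2, Pik3ip1 and Tsc22d3. In Btg1 and Txnip they mark TGTTTAC, a forkhead motif, and in Txnip also ACANNNTGT, a pattern of paired glucocorticoid receptor sites. Both strands were searched, so the reverse complement is in capitals where the match was on the other strand.
Btg1: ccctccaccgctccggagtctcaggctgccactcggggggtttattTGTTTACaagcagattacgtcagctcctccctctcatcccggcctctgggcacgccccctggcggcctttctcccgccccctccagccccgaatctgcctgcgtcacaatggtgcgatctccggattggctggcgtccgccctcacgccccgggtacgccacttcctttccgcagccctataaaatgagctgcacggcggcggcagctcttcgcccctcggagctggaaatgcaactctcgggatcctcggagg
Tob1: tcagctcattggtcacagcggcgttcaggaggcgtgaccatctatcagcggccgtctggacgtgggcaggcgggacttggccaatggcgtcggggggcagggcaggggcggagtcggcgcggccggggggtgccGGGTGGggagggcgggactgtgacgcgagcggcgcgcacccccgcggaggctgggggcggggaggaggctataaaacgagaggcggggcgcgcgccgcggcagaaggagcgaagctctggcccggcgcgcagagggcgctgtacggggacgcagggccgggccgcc
Tob2: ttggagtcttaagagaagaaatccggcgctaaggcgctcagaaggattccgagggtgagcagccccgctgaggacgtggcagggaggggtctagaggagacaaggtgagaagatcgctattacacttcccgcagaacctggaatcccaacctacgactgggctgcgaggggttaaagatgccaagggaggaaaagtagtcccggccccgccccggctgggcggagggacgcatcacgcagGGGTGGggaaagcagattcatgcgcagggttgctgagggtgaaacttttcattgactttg
Pik3ip1: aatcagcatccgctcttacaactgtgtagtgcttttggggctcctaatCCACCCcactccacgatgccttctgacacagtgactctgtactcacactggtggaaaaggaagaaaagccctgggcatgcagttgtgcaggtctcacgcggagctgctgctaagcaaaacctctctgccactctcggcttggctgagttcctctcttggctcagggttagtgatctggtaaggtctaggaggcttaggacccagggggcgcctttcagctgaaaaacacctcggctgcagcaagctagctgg
Txnip: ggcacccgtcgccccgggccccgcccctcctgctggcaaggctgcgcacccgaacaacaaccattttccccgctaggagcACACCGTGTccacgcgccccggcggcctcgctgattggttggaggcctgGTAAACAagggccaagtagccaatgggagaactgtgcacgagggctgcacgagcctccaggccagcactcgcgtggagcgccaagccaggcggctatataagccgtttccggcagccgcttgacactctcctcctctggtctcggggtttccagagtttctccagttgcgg
Tsc22d3: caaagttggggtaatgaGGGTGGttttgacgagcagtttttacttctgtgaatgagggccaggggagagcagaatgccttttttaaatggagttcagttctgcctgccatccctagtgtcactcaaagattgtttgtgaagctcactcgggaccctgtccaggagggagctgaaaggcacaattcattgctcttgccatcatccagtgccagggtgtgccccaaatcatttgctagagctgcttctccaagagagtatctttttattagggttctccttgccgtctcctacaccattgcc

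The windows lie at chr10:96616751-96617050 on the plus strand for Btg1, chr11:94211204-94211503 on the plus strand for Tob1, chr15:81858277-81858576 on the minus strand for Tob2, chr11:3330481-3330780 on the plus strand for Pik3ip1, chr3:96557707-96558006 on the plus strand for Txnip and chrX:140548522-140548821 on the minus strand for Tsc22d3. Each covers upstream sequence and the first bases of the transcript. Counting from the gene start, CCACCC matched at -116 in Tob1, -10 in Tob2, -202 in Pik3ip1 and -233 in Tsc22d3. Txnip had its forkhead match at -121 and its receptor-site pair at -170, and Btg1 had a forkhead match at -204. Among 32851 RefSeq promoter windows of the same length, 31.48% held CCACCC, 3.65% held TGTTTAC and 6.846% held ACANNNTGT. Btg2 and Slfn2 held none of these motifs, and none of the 8 windows held the E-box CACGTG, which 7.15% of windows held. RefSeq windows at other starts of Tsc22d3, chrX:140542619-140542918 and chrX:140600473-140600772, held no match to any of the motifs searched. A match describes letters in a window and is not evidence of binding.

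The libraries differed in ways that touch these genes. Reads over exons made up 62.0% and 80.3% of all tags in stimulated KLF2+ libraries, 23.6% and 43.9% in unstimulated KLF2+ libraries, 12.7% and 7.96% in stimulated KLF2- libraries and 18.1% and 19.5% in unstimulated KLF2- libraries. Exon reads numbered 2.99 to 36.62 M per library. Read density over 1471 olfactory and vomeronasal receptor genes, which T cells are not known to use, was taken as background. It made up 0.402% to 1.25% of exon reads in stimulated KLF2+ libraries and 20.2% in stimulated KLF2- replicate 4. The usual scaling over all genes (TMM) gave factors of 0.626 to 1.54, and scaling on genes of at least 50 CPM (counts per M reads) gave 0.929 to 1.04. Results are therefore given for whole counts scaled by TMM and, beside them, for counts with that background subtracted and then scaled on genes of at least 50 CPM. CD4 T cell markers were present in all libraries. Their summed level over 9 genes was 4869 to 7767 CPM in KLF2+ libraries and 2498 to 3965 CPM in KLF2- libraries, in whole counts scaled by TMM.

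All 8 genes were read in every library, with 158.5 estimated counts at the least (Tob2 in stimulated KLF2- replicate 4) and 38243 at the most (Slfn2), and all 8 passed the filter on low counts. Levels per transcript length are compared here in TPM, the length-normalised unit of the deposited table. Slfn2 was the most abundant of the 8 in every library, at rank 20 to 93 among 25124 genes. In unstimulated KLF2+ cells its TPM was 1021 and 1216. Txnip followed at 320.5 and 388 TPM, then Btg1 at 278 and 303, and Btg2 at 243 and 216. Tob1 stood at 78.9 and 79.7 TPM, Pik3ip1 at 62.5 and 66.4, Tsc22d3 at 59.7 and 57.9, and Tob2 at 26.5 and 19.5. That order held in both libraries, with no overlap between neighbours.

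The order was not the same after stimulation. In stimulated KLF2+ cells Slfn2 was again highest with 582 and 636 TPM and Btg1 next with 97.2 and 125 TPM. Btg2 (78.6 and 67.5 TPM) and Txnip (71.0 and 87.2 TPM) overlapped. Tob2 had 22.5 and 23.0 TPM there and stood above Tsc22d3 (19.2 and 16.4), Tob1 (13.5 and 19.0) and Pik3ip1 (13.5 and 12.8), whereas in unstimulated KLF2+ cells it was the lowest of the 8. In KLF2- cells Tob2 had 24.5 and 16.4 TPM with stimulation and 26.5 and 25.6 TPM without. In stimulated KLF2- replicate 4, background made up 22.3% of the Tob2 reads, against 9.80% or less for the other 7 genes in any library.

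**Figure D1:**
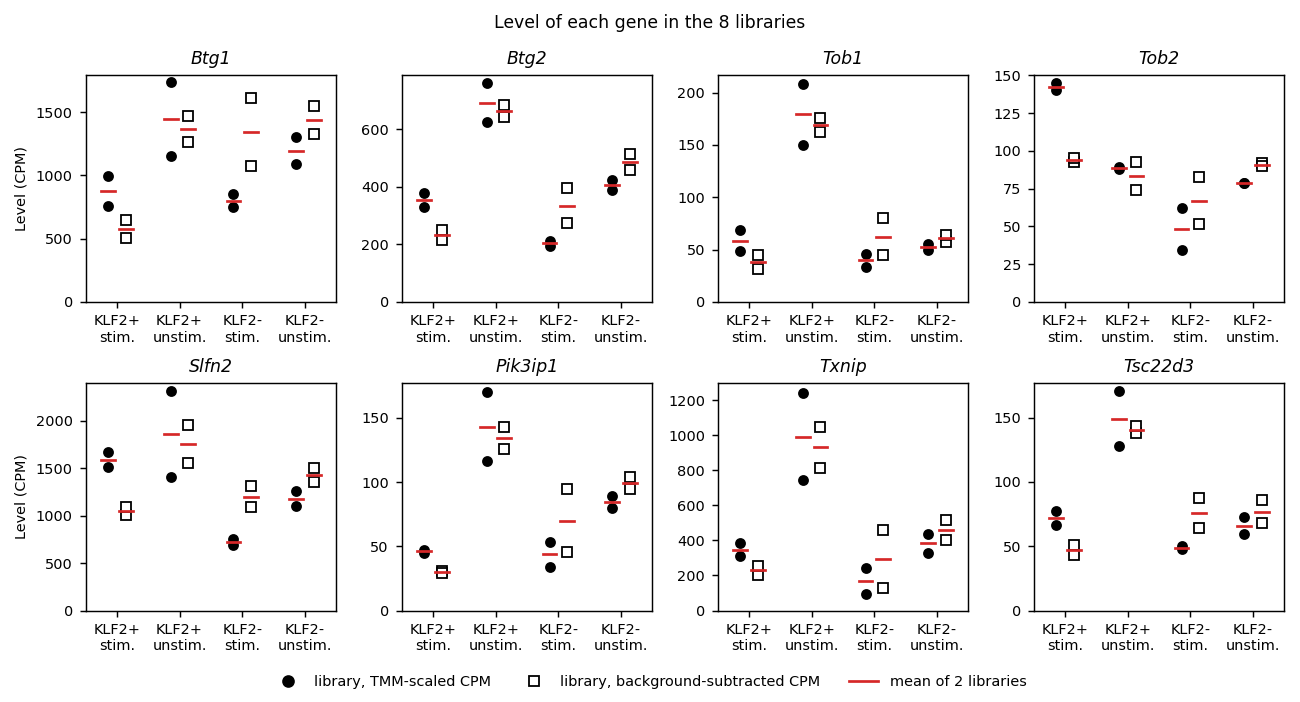
Level of each of the 8 genes in the 8 libraries, in CPM, with filled circles for whole counts after TMM scaling and open squares for counts with background subtracted, and with stimulated KLF2+, unstimulated KLF2+, stimulated KLF2- and unstimulated KLF2- cells from left to right. Each point is 1 library and red lines are means of 2. In whole counts of KLF2+ cells the stimulated libraries lie below the unstimulated ones for Btg1, Btg2, Tob1, Pik3ip1, Txnip and Tsc22d3, and above them for Tob2. With background subtracted the Tob2 groups of KLF2+ cells overlap. The share of all genes without overlap was not counted.

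The stimulation of KLF2+ cells asks how these genes behave when resting cells are driven to divide. Of the 8, 5 fell (Btg2, Tob1, Pik3ip1, Txnip and Tsc22d3), none rose, and 3 did not pass the test. Of all 19146 genes tested 17.4% were called lower and 19.7% higher. With background subtracted 7 of 8 fell, Tob2 being the exception, while 16.4% of 15281 genes were called lower and 12.7% higher. Tob1 and Pik3ip1 had the largest log2 declines of the 8 in both fits. Many other genes fell further: in whole counts 26.9% of all genes tested had a lower log2 difference than Pik3ip1 and 27.4% a lower one than Tob1. For Tob2, the highest of the 8, this share was 77.0%. The median log2 difference, stimulated minus unstimulated, was -1.01 over the 8 genes and -0.25 over all genes, and with background subtracted it was -1.54 and -0.24. Calls were made at an adjusted p under 0.05 by the edgeR quasi-likelihood test, with Benjamini-Hochberg adjustment across every gene tested, and log2 differences are given ± their standard error (SE).

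Among the genes of the BTG and TOB family, Btg1, a binder of the deadenylase, had 759 and 992 CPM in stimulated KLF2+ cells and 1158 and 1737 CPM in unstimulated KLF2+ cells. The groups did not overlap. The log2 difference was -0.73 ± 0.29 (edgeR adjusted p = 0.072; 95% interval -1.38 to -0.08), and with background subtracted -1.24 (edgeR adjusted p = 0.0099). Btg2, its close relative and a p53 target, had 377 and 329 CPM in stimulated KLF2+ cells and 623 and 762 CPM in unstimulated KLF2+ cells. Both stimulated libraries were lower than both unstimulated ones, and Btg2 fell by 0.97 ± 0.22 on the log2 scale (edgeR adjusted p = 0.011). The call was lost without KLF2+ stimulated replicate 2 (edgeR adjusted p = 0.145).

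Tob1, the TOB protein described as a brake on T cell activation, had 48.1 and 68.5 CPM in stimulated KLF2+ cells and 149.7 and 208 CPM in unstimulated KLF2+ cells. The groups were far apart, and Tob1 fell by 1.62 ± 0.26 (SE) on the log2 scale (edgeR adjusted p = 0.0029). Tob2, its paralogue, had 140.0 and 145 CPM in stimulated KLF2+ cells and 88.0 and 89.3 CPM in unstimulated KLF2+ cells. Both stimulated libraries were higher, but the log2 difference of 0.68 ± 0.25 did not pass the test (edgeR adjusted p = 0.055; 95% interval 0.12 to 1.25). With background subtracted the Tob2 levels were 92.6 and 95 CPM in stimulated KLF2+ cells and 92.7 and 74.0 CPM in unstimulated KLF2+ cells, which overlapped, for a log2 difference of 0.17 (edgeR adjusted p = 0.57).

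Slfn2 had 1508 and 1668 CPM in stimulated KLF2+ cells and 1410.3 and 2314 CPM in unstimulated KLF2+ cells. The groups overlapped, and the log2 difference was -0.23 ± 0.30 (edgeR adjusted p = 0.53; 95% interval -0.89 to 0.43). With background subtracted it was 1005 and 1096 CPM in stimulated KLF2+ cells, against 1550 and 1956 CPM in unstimulated KLF2+ cells, and the log2 difference was -0.74 (edgeR adjusted p = 0.018). Without KLF2+ unstimulated replicate 2 the whole-count difference was 0.21.

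Pik3ip1, the PI3K inhibitor, had 47.1 and 45.1 CPM in stimulated KLF2+ cells and 116 and 170.0 CPM in unstimulated KLF2+ cells. Its stimulated libraries lay close together and well below the others, and it fell by 1.64 ± 0.26 (SE) on the log2 scale (edgeR adjusted p = 0.0029). Tob1 and Pik3ip1 were called in 16 of 16 alternative settings. Txnip, the thioredoxin-binding protein, had 309 and 384 CPM in stimulated KLF2+ cells and 744 and 1238 CPM in unstimulated KLF2+ cells. The groups did not overlap, and Txnip fell by 1.52 ± 0.43 (SE) on the log2 scale (edgeR adjusted p = 0.024). The Txnip call was lost without KLF2+ stimulated replicate 1 (edgeR adjusted p = 0.063), KLF2+ stimulated replicate 2 (edgeR adjusted p = 0.064) or KLF2+ unstimulated replicate 2 (edgeR adjusted p = 0.104). Tsc22d3, the glucocorticoid-induced leucine zipper gene, had 77.0 and 66.4 CPM in stimulated KLF2+ cells and 128 and 170.3 CPM in unstimulated KLF2+ cells. Both stimulated libraries were lower, and it fell by 1.06 ± 0.21 (SE) on the log2 scale (edgeR adjusted p = 0.0070), a call lost without KLF2+ stimulated replicate 2 (edgeR adjusted p = 0.093).

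With background subtracted, the same 5 genes had larger declines. The log2 differences were -1.51 for Btg2, -2.14 for Tob1, -2.15 for Pik3ip1, -2.02 for Txnip and -1.57 for Tsc22d3. Markers of myeloid cells moved with this comparison: 12 of 13 fell in whole counts, against 17.4% of all genes. With background subtracted 10 fell, against 16.4% of all genes. In whole counts their summed level was 58.7 and 96.2 CPM in stimulated KLF2+ libraries and 926 and 1672 CPM in unstimulated KLF2+ libraries, with none at 0. Lyz2 carried most of it. Of 5 NK cell markers 3 fell in whole counts (Klrb1c -1.78, Klrk1 -1.62 and Ncr1 -1.82), and 2 of 4 with background subtracted. Their summed level in whole counts was 37.5 and 43.2 CPM in stimulated KLF2+ libraries and 87.8 and 109.9 CPM in unstimulated KLF2+ libraries, with none at 0. The part of either marker list in the result for the 8 genes was not tested. In bulk RNA, fewer cells of a type and less RNA per cell cannot be told apart.

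**Figure D2:**
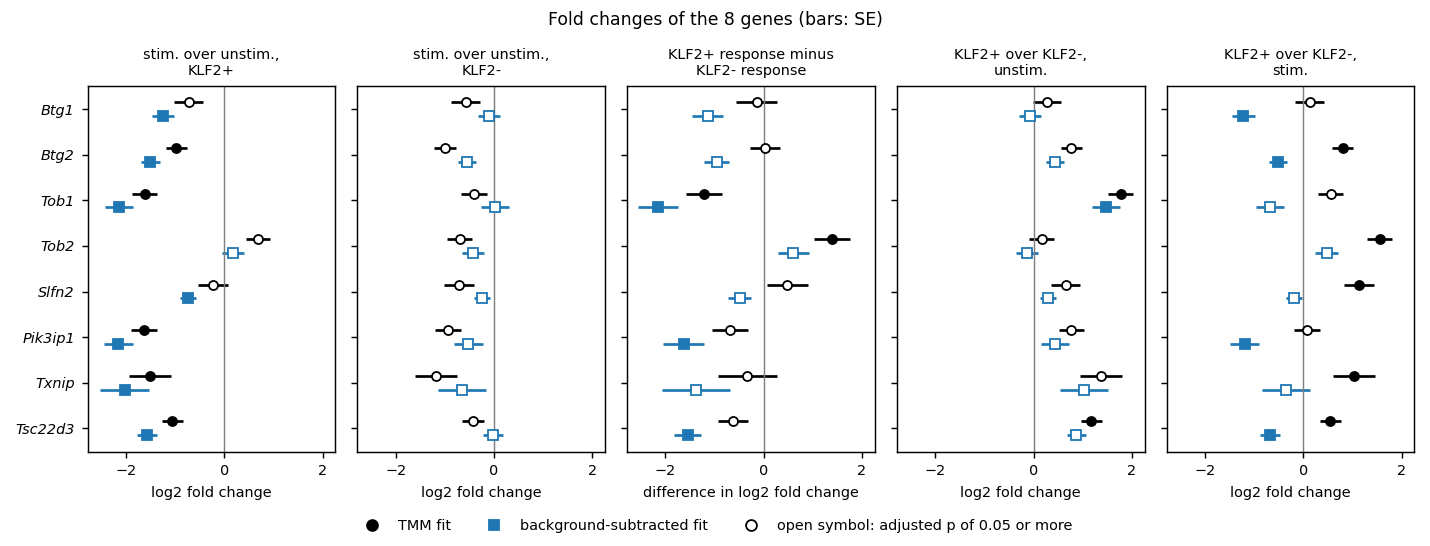
Log2 differences of the 8 genes in each comparison, as points with bars of 1 SE, for whole counts (black circles) and for counts with background subtracted (blue squares), open where the adjusted p was 0.05 or more. In stimulated against unstimulated KLF2+ cells Tob1 (-1.62) and Pik3ip1 (-1.64) lie farthest below 0 and Tob2 (0.68) above it, and in stimulated KLF2+ against stimulated KLF2- cells the fits lie on opposite sides of 0 for most genes.

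In KLF2- cells the same stimulus called none of the 8 genes, and 0% of all genes by edgeR in either fit. Over all genes 2802 had an unadjusted p under 0.05 by edgeR, and 2048 with background subtracted. The log2 differences, stimulated minus unstimulated, were -0.58 for Btg1, -1.0 for Btg2, -0.40 for Tob1, -0.70 for Tob2, -0.71 for Slfn2, -0.94 for Pik3ip1, -1.18 for Txnip and -0.43 for Tsc22d3. All 8 lay below 0, and the median was -0.71 over the 8 genes and 0.06 over all genes. With background subtracted it was -0.34 and 0.13, and Tob1 was 0.01. In whole counts the share of all genes with a lower log2 difference than the member ran from 0.93% (Txnip) to 24.6% (Tob1). DESeq2 called 1 of the 8 genes, Btg2 (DESeq2 adjusted p = 0.0495).

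The stimulated KLF2- libraries differed from each other. Txnip read 93.3 CPM (replicate 3) and 245 CPM (replicate 4), against 331 and 435 CPM in unstimulated KLF2- libraries. Tob2 read 62.3 CPM (replicate 3) and 34.4 CPM (replicate 4), against 79.0 and 78.9 CPM in unstimulated KLF2- libraries. Btg2 had 194 and 212 CPM with stimulation and 424 and 388 CPM without. Pik3ip1 had 34.3 and 53.6 CPM with stimulation and 79.5 and 88.9 CPM without. Slfn2 had 757 and 686 CPM with stimulation and 1105 and 1256 CPM without. Btg1 had 749 and 853 CPM with stimulation and 1091 and 1301 CPM without. Tob1 had 33.6 and 46.0 CPM with stimulation and 49.3 and 55.7 CPM without. Tsc22d3 had 47.5 and 50.5 CPM with stimulation and 72.6 and 59.3 CPM without. In these whole counts both stimulated libraries lay below both unstimulated ones for each of the 8 genes. None of the 8 was called by edgeR in either fit. The TMM factors that divide these levels were 1.34 and 1.54 in stimulated and 1.17 and 1.15 in unstimulated KLF2- libraries. Factors from genes of at least 50 CPM were 1.01 and 0.929 with stimulation and 1.03 and 1.02 without. With background subtracted the groups overlapped for Btg1, Tob1, Txnip and Tsc22d3. The share of all genes without overlap was not counted. In whole counts scaled by TMM, early T cell receptor response genes summed to 1006 CPM (replicate 3) and 297 CPM (replicate 4) with stimulation. In unstimulated KLF2- cells they summed to 345 and 350.3 CPM. Cell division genes summed to 1838 and 519 CPM with stimulation and 837 and 821 CPM without. Sums with background subtracted were not taken. The median log2 difference of the 10 early response genes was 1.52 in whole counts and 2.00 with background subtracted. For the 12 cell division genes it was 0.93 and 1.27. No gene of either list was called by edgeR in either fit.

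The difference between the responses, KLF2+ minus KLF2-, was tested as an interaction. Both responses enter it, so their values are not independent of it. In whole counts Tob2 was called higher (20.3% of all genes were called higher) and Tob1 lower (15.5% of all genes were called lower). Tob1 differed by -1.21 ± 0.37 (SE; edgeR adjusted p = 0.033) and Tob2 by 1.39 ± 0.36 (SE; edgeR adjusted p = 0.024). Tob1 was called in 9 of 16 alternative settings and Tob2 in 8 of 16. Without KLF2+ stimulated replicate 2 both calls were lost (edgeR adjusted p = 0.057 for Tob1 and 0.068 for Tob2), as they were without KLF2+ unstimulated replicate 1 or either unstimulated KLF2- library. Leaving out KLF2+ stimulated replicate 1, KLF2+ unstimulated replicate 2 or KLF2- stimulated replicate 4 ended the Tob1 call only. With background subtracted, Tob1 (-2.15; edgeR adjusted p = 0.035), Pik3ip1 (-1.63; edgeR adjusted p = 0.048) and Tsc22d3 (-1.55; edgeR adjusted p = 0.035) were called lower, 3 of 8 against 8.23% of all genes. Tob2 was then 0.60 (edgeR adjusted p = 0.21). The median was -0.24 over the 8 genes and -0.09 over all genes in whole counts, -1.26 and -0.24 with background subtracted, and -1.15 and -1.0 with scaling on genes of at least 50 CPM.

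Btg1, Btg2, Slfn2 and Txnip were not called in either fit for this difference, and their values moved with the scaling. In whole counts the 95% intervals ran from -1.06 to 0.77 for Btg1, from -0.66 to 0.72 for Btg2, from -0.45 to 1.42 for Slfn2 and from -1.66 to 0.99 for Txnip. With background subtracted the differences were -1.14 for Btg1 (edgeR adjusted p = 0.055) and -0.96 for Btg2 (edgeR adjusted p = 0.054), both outside those intervals, -0.49 for Slfn2 and -1.37 for Txnip. Btg1 and Btg2 were called with scaling on genes of at least 50 CPM (edgeR adjusted p = 0.037 and 0.035) and by limma on log2(TPM + 1) (adjusted p = 0.022 and 0.023). The Pik3ip1 interval was -1.51 to 0.12 and the Tsc22d3 interval -1.30 to 0.05 in whole counts.

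Without stimulation, KLF2+ cells were compared with KLF2- cells to ask whether the genes differed at rest. Of the 8, 2 were called higher in KLF2+ cells, Tob1 and Tsc22d3, against 1.07% of all genes, and none lower, against 1.25% of all genes. Tob1 had 149.7 and 208 CPM in unstimulated KLF2+ cells and 49.3 and 55.7 CPM in unstimulated KLF2- cells. The groups did not overlap, for a log2 difference of 1.77 ± 0.26 (SE; edgeR adjusted p = 0.0092). With background subtracted Tob1 was the only one of the 8 called, at 1.47 (edgeR adjusted p = 0.035), against 0.975% of all genes called higher. The Tob1 call was lost without KLF2+ unstimulated replicate 2 (edgeR adjusted p = 0.083) or without either unstimulated KLF2- library (edgeR adjusted p = 0.16 without replicate 3 and 0.10 without replicate 4).

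Tsc22d3 had 128 and 170.3 CPM in unstimulated KLF2+ cells and 72.6 and 59.3 CPM in unstimulated KLF2- cells. The groups did not overlap, and the log2 difference was 1.18 ± 0.21 (SE; edgeR adjusted p = 0.022). It was 0.87 with background subtracted (edgeR adjusted p = 0.055), and the call was lost without KLF2+ unstimulated replicate 2 (edgeR adjusted p = 0.135) or without KLF2- unstimulated replicate 3 or 4 (edgeR adjusted p = 0.19 and 0.33). Txnip had 744 and 1238 CPM in unstimulated KLF2+ cells and 331 and 435 CPM in unstimulated KLF2- cells, with a log2 difference of 1.37 ± 0.43 (SE; edgeR adjusted p = 0.14; 95% interval 0.42 to 2.33). Its groups did not overlap either, and DESeq2 called it (adjusted p = 0.0042). Btg2 had a log2 difference of 0.77 (95% interval 0.28 to 1.26), Pik3ip1 0.77 (0.19 to 1.34), Slfn2 0.66 (-0.01 to 1.32), Btg1 0.28 (-0.37 to 0.92) and Tob2 0.17 (-0.39 to 0.73). With background subtracted these 5 values were 0.44, 0.44, 0.30, -0.07 and -0.13, in the same order, and Txnip was 1.02. The median was 0.77 over the 8 genes and -0.11 over all genes in whole counts, and 0.44 and -0.21 with background subtracted. Myeloid markers, summed in whole counts, were also higher in unstimulated KLF2+ libraries (926 and 1672 CPM) than in unstimulated KLF2- libraries (52.7 and 49.0 CPM). Of these 13 markers 4 were called higher in whole counts and 3 with background subtracted, against 1.07% and 0.975% of all genes. B cell markers in whole counts summed to 157 and 266 CPM in unstimulated KLF2+ libraries and 92.0 and 111 CPM in unstimulated KLF2- libraries. The part of either marker list in the results for the 8 genes was not tested. At most 1 of the 13 myeloid markers was at 0 in any of the 8 libraries.

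After stimulation, the direction of the difference between KLF2+ and KLF2- cells depended on the scaling. In whole counts 5 of 8 were called higher in KLF2+ cells (Btg2 0.80, Tob2 1.55, Slfn2 1.14, Txnip 1.04 and Tsc22d3 0.55 on the log2 scale) and none lower. Of all genes 35.5% were called higher and 39.7% lower. With background subtracted none of the 8 was called higher and 4 were called lower (Btg1 -1.22, Btg2 -0.52, Pik3ip1 -1.19 and Tsc22d3 -0.68). Of all genes 16% were then called higher and 38.5% lower. Btg2 and Tsc22d3 were thus called in opposite directions. The median over all genes was -0.19 in whole counts, -0.46 with background subtracted and -1.39 with scaling on genes of at least 50 CPM, and over the 8 genes it was 0.68, -0.60 and -0.53. The median of the 8 genes was below that of all genes only with background subtracted. Leaving out KLF2+ stimulated replicate 1 ended the whole-count call of Btg2 (edgeR adjusted p = 0.082). The Txnip call ended without KLF2+ stimulated replicate 2, KLF2- stimulated replicate 3 or either unstimulated KLF2- library, and that of Tsc22d3 without any 1 of the stimulated libraries or of the unstimulated KLF2- libraries (edgeR adjusted p = 0.056 to 0.207). The Tsc22d3 call was also lost with RLE scaling (edgeR adjusted p = 0.060) and with DESeq2 (adjusted p = 0.070). Slfn2 had 1508 and 1668 CPM in stimulated KLF2+ cells and 757 and 686 CPM in stimulated KLF2- cells in whole counts, and 1005 and 1096 CPM against 1092 and 1308 CPM with background subtracted. Tob2 had 140.0 and 145 CPM in stimulated KLF2+ cells and 62.3 and 34.4 CPM in stimulated KLF2- cells in whole counts, and 92.6 and 95 CPM against 82.7 and 51.3 CPM with background subtracted. Of 9 CD4 T cell markers, 9 were called higher in stimulated KLF2+ cells in whole counts (median log2 difference 1.41). With background subtracted 3 were called higher and 1 lower (median 0.10), against 16% and 38.5% of all genes. The part of these markers in the results for the 8 genes was not tested.

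A ratio of 2 genes within a library, per kb of transcript, uses no scaling. The Tob1:Tob2 ratio was 0.601 and 0.826 in stimulated KLF2+ cells and 2.98 and 4.08 in unstimulated KLF2+ cells, which did not overlap. It was 0.943 and 2.33 in stimulated KLF2- cells and 1.09 and 1.24 in unstimulated KLF2- cells, which did overlap. A ratio shows that 2 genes changed unequally, not which of them changed. Against Tob2, Pik3ip1 was 0.600 and 0.556 in stimulated KLF2+ cells and 2.36 and 3.40 in unstimulated KLF2+ cells, and Txnip was 3.16 and 3.79 in stimulated KLF2+ cells and 12.1 and 19.8 in unstimulated KLF2+ cells. Tob2 alone of the 8 had a log2 difference above 0 in the KLF2+ response (0.68 in whole counts). Lower ratios over it are therefore not separate evidence of a fall. In KLF2- cells the Txnip:Tob2 ratio was 2.15 and 10.1 with stimulation and 5.99 and 7.89 without, a spread between the stimulated libraries wider than the gap between groups. Btg2:Btg1, the ratio of the paralogues that bind CCR4-NOT, was 0.808 and 0.538 in stimulated KLF2+ cells and 0.875 and 0.713 in unstimulated KLF2+ cells, which overlapped. Between KLF2+ and KLF2- cells, the Btg2:Btg1 ratio was 0.808 and 0.538 against 0.421 and 0.404 with stimulation, with no overlap. Without stimulation it was 0.875 and 0.713 against 0.632 and 0.485, also with no overlap. Within KLF2- cells the stimulated and unstimulated libraries did not overlap in this ratio either.

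**Figure D3:**
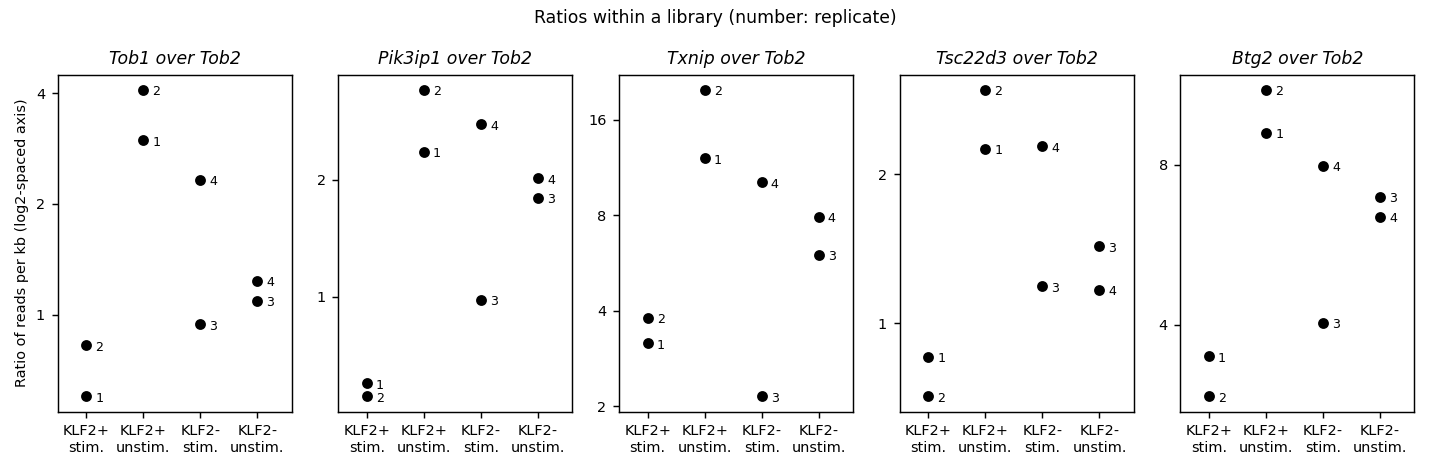
Ratios of Tob1, Pik3ip1, Txnip, Tsc22d3 and Btg2 over Tob2 within each library, per kb of transcript and on a log axis, with the groups in the same order as in the plot of levels. Each point is 1 library, marked with its replicate number. The Tob1:Tob2 ratio is below 1 in stimulated KLF2+ cells (0.601 and 0.826) and above it in unstimulated KLF2+ cells (2.98 and 4.08).

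Overlapping genes could share reads where the counting did not use strand, and the treatment of strand is not given in the sources used here. Txnip shares 606 of 3123 exon bases (19.4%) in GENCODE M21 with the antisense gene Gm15441, and the Txnip:Gm15441 ratio was 3.03 to 3.51 in all 8 libraries. Tob2 shares 289 bases (4.55%) with Gm49476 and Pik3ip1 shares 91 bases (2.13%) with Gm12592, both antisense. The Txnip values are therefore uncertain to the extent that Gm15441 reads were counted there.

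The genes whose levels across the 8 libraries were most like each member's were found by the root mean square difference of log2(CPM + 1) after centring each gene, over 10014 genes of at least 10 CPM on average. For Tob1 they were Klhl6 (0.151) and Cmah (0.161), for Pik3ip1 Klf3 (0.140) and Ifi209 (0.148), and for Tsc22d3 Mndal (0.126) and Ripor2 (0.156). Btg1 was most like Pbxip1 (0.093) and Sgsh (0.103), Btg2 like Entpd5 (0.127) and Trim12a (0.139), and Tob2 like Iah1 (0.061) and Snhg16 (0.082). Slfn2 was most like Chmp1b (0.033) and Limd2 (0.039), and Txnip like Shld1 (0.255) and Ifit1bl1 (0.264). Among the 8, Btg2 and Tsc22d3 were nearest each other, Tsc22d3 ranking 25 from Btg2 and Btg2 ranking 17 from Tsc22d3, while the nearest of the others to Tob2 was Slfn2 at rank 3695. These are descriptions of 8 libraries that share scaling factors.

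Genes of the same pathways are given for KLF2+ cells after stimulation, where 19.7% of all genes were called higher and 17.4% lower in whole counts, and 12.7% higher and 16.4% lower with background subtracted. Of 17 CCR4-NOT and poly(A) genes, which include the partners of the BTG and TOB proteins, 6 rose and 1 fell in whole counts, and 1 rose and 3 fell with background subtracted. Cnot9, a core subunit, rose in both fits (log2 difference 1.43 in whole counts and 0.93 with background subtracted). Cnot10 (1.0) and Pabpc4 (1.67) were called in whole counts only (edgeR adjusted p = 0.069 and 0.25 with background subtracted). Of 18 other quiescence factors, 1 rose and 8 fell in whole counts, and 11 of 17 fell and none rose with background subtracted. Klf3 (-1.80), Il7r (-2.17) and Klf2 (-1.55) fell in both fits.

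Of the 2 other BTG genes, Btg3 was called in neither fit. Btg4 had 0.755 and 0.0872 CPM in stimulated KLF2+ cells and 5.85 and 1.13 CPM in unstimulated KLF2+ cells, and was called lower in whole counts only (-3.13; edgeR adjusted p = 0.061 with background subtracted). Among 6 Schlafen genes related to Slfn2, Slfn9 rose (1.41) and Slfn5 fell (-1.01) in both fits, and with background subtracted 3 fell. Of 13 PI3K genes, whose enzyme PIK3IP1 inhibits, only Pik3r1, a regulatory subunit, fell in whole counts (-0.81), a share below that of all genes, and 3 fell with background subtracted. Of 12 genes related to Txnip, 4 rose and 2 fell in whole counts, and 2 of 11 rose and 4 fell with background subtracted. Txn1, the thioredoxin that TXNIP binds (2.08 in whole counts), and the glucose transporter gene Slc2a3 (1.37) rose in both fits. Txnrd1, thioredoxin reductase, was called in whole counts only (0.90, and 0.37 with background subtracted; edgeR adjusted p = 0.089). Of 9 TSC22 and glucocorticoid response genes, 1 rose and 2 fell in whole counts, and 1 fell with background subtracted, Sgk1 (-2.07 in whole counts). Tsc22d1 (-2.41) and Fkbp5 (1.05) were called in whole counts only (edgeR adjusted p = 0.11 for each with background subtracted). All 12 cell division genes rose in both fits.

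Between unstimulated KLF2+ and KLF2- cells, 3 of the 18 other quiescence factors were called higher in KLF2+ cells in whole counts and none lower, while 1.07% of all genes were called higher and 1.25% lower. They were Klf2 (2.69), whose reporter the sort used, Il7r (1.70) and S1pr1 (2.27). With background subtracted 1 of 17 was called higher, Klf2, and 1 lower, Rb1 (-0.99), while 0.975% of all genes were called higher and 3.02% lower, and Il7r (edgeR adjusted p = 0.0501) and S1pr1 (edgeR adjusted p = 0.096) lost their calls. In both fits Sgk1 was higher (2.39 in whole counts) and Arrdc4, an arrestin related to Txnip, was lower (-1.84).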

How the data were processed

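RNA from 8 mouse libraries was analysed from 2 tables deposited by the authors, which hold estimated counts and TPM per gene over exons, made with HOMER per the file headers. The submitters' processing notes also name STAR 2.7.9, HOMER 4.11, SAMtools, DESeq2 and the builds mm10 and GRCm38. All estimated counts were multiples of 0.5 and were rounded. The 8 genes and all lists were chosen with earlier results of these data known. From each list and comparison at most 3 called genes, those of smallest p, were named (with no call, the most abundant gene), and like genes were the 2 nearest to each member.

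The 4 groups were fitted together in edgeR 4.0.16 (quasi-likelihood test, TMM, filterByExpr, 4 residual degrees of freedom) with Benjamini-Hochberg adjustment over 19146 genes, and 5 comparisons were tested. The second fit subtracted receptor gene read density times exon length. Alternatives were RLE scaling, DESeq2 1.42.0, no filter, scaling on genes of at least 50 CPM, limma 3.58.1 on log2(TPM + 1) and log2(TPM + 0.1), a replicate block and each library left out. The edgeR, limma and DESeq2 steps were tested on simulated data. Apart from the changed genes, the simulation gave all libraries the same gene proportions and no differing background. It therefore did not test how results depend on scaling or background. Depth was 33.9 to 45.6 M tags per library. An exact permutation test of 2 against 2 libraries cannot reach 0.05 and was not used.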

Additional observations from a re-analysis of the deposited data

Results flagged for a closer look

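The response to stimulation of Tob1 differed between KLF2+ and KLF2- cells by -1.21 on the log2 scale and that of Tob2 by 1.39, both past the threshold in edgeR's test of the interaction. The libraries behind them are given in the report, and both were called under some alternative settings and not under others.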

How the results depend on the processing

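The number of the 8 genes called moved with the setting. In unstimulated cells it was 4 with DESeq2 and 1 with scaling on genes of at least 50 CPM or with background subtracted, against 2. For the difference in response it was 5 with scaling on genes of at least 50 CPM and 5 with limma on log2(TPM + 1) or log2(TPM + 0.1), against 2. For the response of KLF2- cells it was 1 with DESeq2 and 3 with the replicate block (Btg2, Pik3ip1 and Txnip, edgeR adjusted p = 0.034, 0.014 and 0.0033), against 0. With the replicate block the KLF2+ response called 6, Tob2 being added (edgeR adjusted p = 0.014), and the difference 2. The labels do not say that numbers pair libraries, and deviations of same-numbered libraries correlated at 0.52 in KLF2+ cells and 0.093 in KLF2- cells over 19146 genes. Leaving out 1 library gave 3 to 6 calls in stimulated cells, 0 to 5 in unstimulated cells, 0 to 2 for the difference and 2 to 6 for the KLF2+ response. Over all genes, 14396 were called in stimulated cells, against 8325 with background subtracted, and 444 in unstimulated cells, against 1115 with DESeq2 and 856 or 745 with limma at pseudocounts 1 and 0.1. For the difference the count was 6855, against 1804 with background subtracted and 10857 with the replicate block. For the KLF2+ response it was 7096, against 4451 with background subtracted, 4669 with limma at pseudocount 1 and 10851 with the block. For the KLF2- response it was 0, against 67 with DESeq2 and 770 with the block. With 1 library left out these ran from 33 to 1692 in unstimulated cells, 70 to 9581 for the difference, 2097 to 8971 for the KLF2+ response and 0 to 107 for the KLF2- response. Exon reads, not tags, were fewest in stimulated KLF2- cells, and Tob2 had its lowest count there. The causes of these changes were not tested.

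Directions that turned are given in the order of scaling on genes of at least 50 CPM, background subtracted, limma on log2(TPM + 1) and limma on log2(TPM + 0.1), on the log2 scale. Between stimulated KLF2+ and KLF2- cells these were -1.09, -1.22, -1.31 and -1.32 for Btg1, -0.41, -0.52, -0.64 and -0.64 for Btg2, -0.66, -0.68, -0.85 and -0.89 for Tob1, -0.057, -0.19, -0.30 and -0.30 for Slfn2, -1.16, -1.19, -1.27 and -1.33 for Pik3ip1, -0.23, -0.35, -0.25 and -0.25 for Txnip, and -0.65, -0.68, -0.86 and -0.89 for Tsc22d3. Between unstimulated KLF2+ and KLF2- cells they were -0.048, -0.072, -0.11 and -0.11 for Btg1 and -0.13, -0.13, -0.19 and -0.19 for Tob2. For the difference in response they were -0.87, -0.96, -1.03 and -1.04 for Btg2, also -0.072 with RLE and -0.032 with DESeq2, and -0.38, -0.49, -0.55 and -0.55 for Slfn2. In the KLF2- response Tob1 was 0.011 with scaling on genes of at least 50 CPM and 0.013 with background subtracted, and in the KLF2+ response Tob2 was -0.0011 with limma on log2(TPM + 1) and -0.00048 with log2(TPM + 0.1).

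With 1 library left out, Btg1 ranged from -0.035 to 0.36 in stimulated cells, -0.045 to 0.61 in unstimulated cells and -0.44 to 0.22 for the difference. Over the same omissions Btg2 ranged from -0.14 to 0.22 and Txnip from -0.82 to 0.53 for the difference, Pik3ip1 from -0.16 to 0.44 in stimulated cells and Slfn2 from -0.57 to 0.21 in the KLF2+ response.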
